A study of Arabidopsis thaliana with 4 samples.

Results

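Among the transcripts that whole Arabidopsis seedlings of the wild type hardly showed, 58 genes read higher on both arrays of a CDB1 knockout line. They were chosen from the signals themselves. Of 13513 probe sets with 1 gene symbol, 4232 read below 20 on both wild type arrays and are called near-silent here. Of these, 484 (11.4%) lay, on both knockout arrays, above both wild type signals. The 60 with the highest mean knockout minus mean wild type signal were taken, and JRG21 and PDF1.2 were then left out. PDF1.2b, which was to be left out as well, read above 20 in the wild type and was not among them. Because the knockout and wild type signals chose these genes, their differences are given as a description, with no test.

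The knockout group holds 2 arrays of seedlings labelled CDB1, which the labels describe as a complete knockout with Col-0 as its genetic background. The wild type group holds 2 arrays of Col-0 seedlings. Both groups were whole seedlings at developmental stage 1.02, grown on MS medium under a daily 16 h of light, at 20 °C and a humidity of 80%. The mutant allele, the number of lines and the number of seedlings pooled per array are not given in the labels, and nothing there says that the replicates were separate cultures. Any spread between arrays may therefore be technical. The values are MAS5 signals of Affymetrix ATH1 arrays in arbitrary units, where a probe set is the group of probes that reads 1 transcript. No detection calls were used here, so whether a signal of this size lies above background is unknown. In whole seedlings, fewer cells that express a gene and less RNA per cell cannot be told apart.

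The series title names a protein that binds Polycomb. Polycomb complexes are chromatin regulators that keep genes silent outside the tissue or stage in which they are used. In plants they hold many floral, embryo and seed genes off in vegetative tissue, and loss of a core Polycomb subunit in Arabidopsis is known to release floral homeotic genes in leaves. Genes that are silent in wild type seedlings and gain signal in the knockout are therefore the place where such a release would be looked for. CDB1 itself could not be looked up, since no annotation used here pairs that name with a gene.

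The seedling label was checked with marker genes. RCA (Rubisco activase) read 2430 and 2685 in the knockout and 2672 and 2292 in wild type. PYK10, a beta-glucosidase of the root, read 2544 and 2859 in the knockout and 2967 and 2599 in wild type, so both shoot and root were present in both groups. The other 3 markers that could be named read higher on both knockout arrays, and none was called by limma. LHCB4.1, of the light-harvesting antenna, read 2064 and 1808 in the knockout and 1518 and 1568 in wild type. The root hair expansins EXPA7 and EXPA18 read 55.9 and 55.9, and 58.5 and 60.9, in the knockout, against 28.7 and 50.3, and 51.0 and 49.5, in wild type. Whether the share of these tissues has a part in the differences of the 58 genes was not tested. Array medians were 47.9 and 47.9 in the knockout and 48.3 and 50.6 in wild type. At the dim end 1 array stood apart. The 25th percentile was 14.6 and 14.0 on the knockout arrays and 14.0 on wild type replicate 1, but 16.9 on wild type replicate 2. Likewise, 4870 and 4994 single-symbol probe sets read below 20 on the knockout arrays and 4998 on wild type replicate 1, against 4442 on wild type replicate 2.

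The 58 genes stayed dim in the knockout. Their median signal was 19.9 and 19.0 on the knockout arrays, against 7.55 and 8.15 on the wild type arrays, and the median difference of means was 10.03. Even the highest member signal, 47.4, was below the median of its array, and none of the 58 reached the median of either knockout array. Both knockout signals were at or above 20 for 17 genes, 1 of them was for 18 genes, and neither was for 23 genes. The difference exceeded 20 signal units for 4 genes, lay between 10 and 20 for 25, and was under 10 for 29. These comparisons with an array's median describe how bright the probe sets were, not how much transcript they read.

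**Figure D1:**
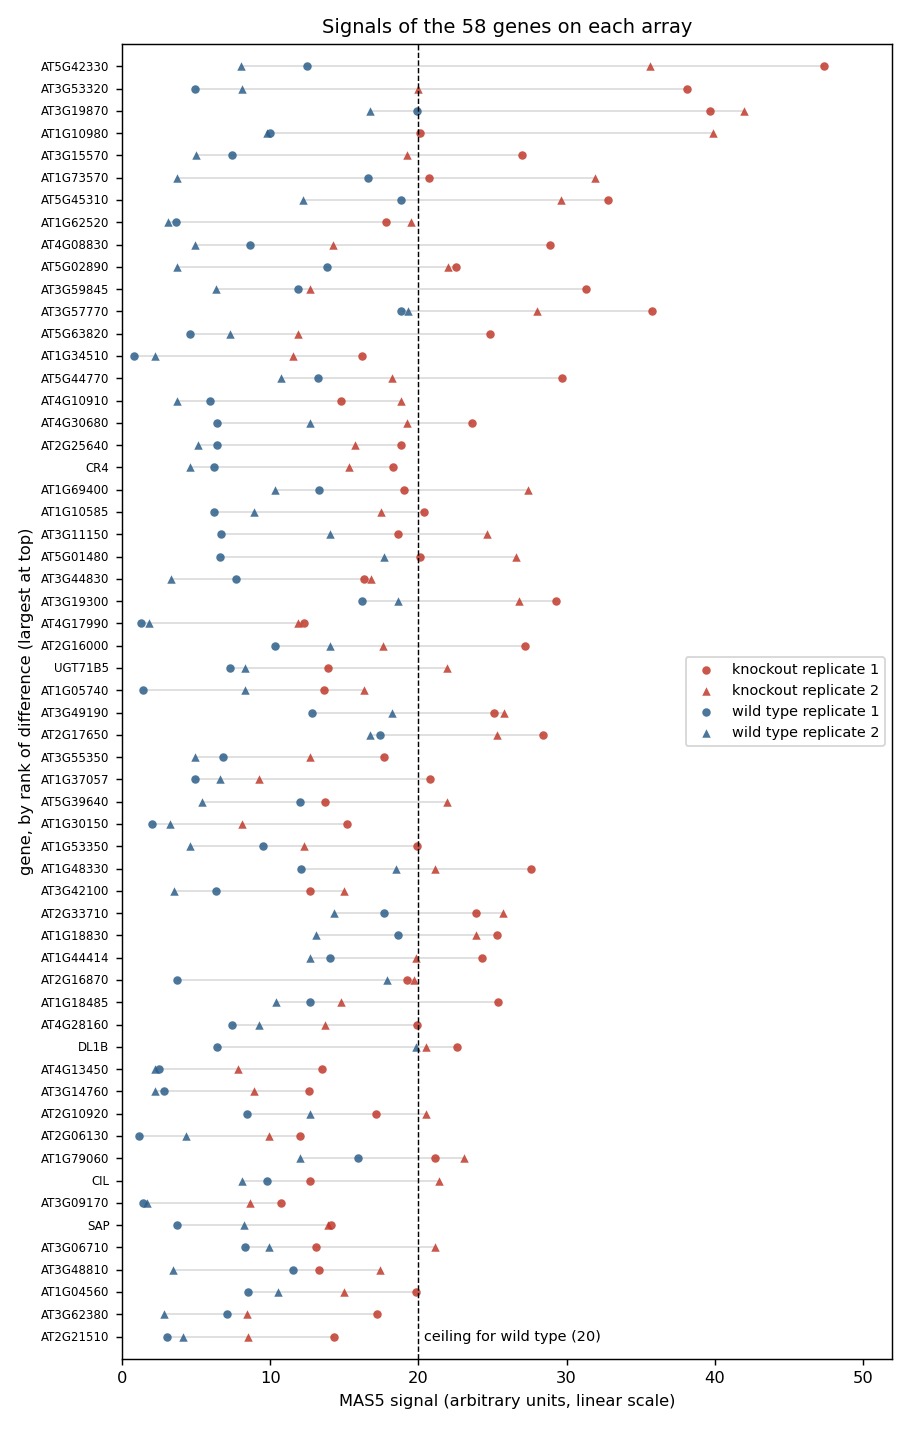
MAS5 signal (horizontal axis, arbitrary units, linear) of each of the 58 genes (vertical axis, largest difference at the top) on the 2 knockout arrays (red) and the 2 wild type arrays (blue), with replicate 1 as circles and replicate 2 as triangles. All wild type points lie below the dashed line at 20, and no knockout point exceeds 47.4.

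AT5G42330, a protein-coding gene on chromosome 5 with no descriptive name in the annotation used, led the group. It read 47.4 and 35.6 in the knockout, against 12.5 and 8.0 in wild type, a difference of 31.25. AT3G19870 had the most even signals among the largest differences, at 39.7 and 42.0 in the knockout and 19.9 and 16.7 in wild type. It lay at the edge of the rule, since 1 wild type array was just under 20. AT3G53320 had the same difference of means, 22.55, but spread over the knockout arrays, at 38.1 and 20.0, against 4.9 and 8.1 in wild type. AT1G10980 was spread the other way, with 20.1 and 39.9 in the knockout and 10 and 9.8 in wild type. The knockout arrays of these last 2 genes differed by 18.1 and 19.8 signal units, nearly as much as the groups did.

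Differences of 14.8 to 16.9 were seen for the next 5 genes. AT3G15570 read 27.0 and 19.2 in the knockout and 7.4 and 5.0 in wild type. AT1G73570 read 20.7 and 31.9 in the knockout and 16.6 and 3.7 in wild type, so that the lowest knockout value lay 4.1 above the highest wild type value. AT5G45310 read 32.8 and 29.6 in the knockout and 18.8 and 12.2 in wild type. Replicates agreed more closely for AT1G62520, which lay at 17.8 and 19.5 in the knockout and 3.6 and 3.1 in wild type. AT4G08830, annotated as a pseudogene, lay at 28.9 and 14.2 in the knockout and 8.6 and 4.9 in wild type.

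The difference was 12.0 to 13.5 for 7 further genes, and here single arrays often carried it. AT5G02890 read 22.5 and 22 in the knockout and 13.8 and 3.7 in wild type. AT3G59845 read 31.3 and 12.7 in the knockout and 11.9 and 6.3 in wild type, with knockout replicate 2 only just above wild type replicate 1. AT3G57770 read 35.8 and 28.0 in the knockout, and its wild type signals of 18.8 and 19.3 were close to the ceiling of 20. AT5G63820 was again uneven, at 24.8 and 11.9 in the knockout and 4.6 and 7.3 in wild type. AT1G34510 was among the dimmest in wild type, at 0.8 and 2.2, and read 16.2 and 11.5 in the knockout. AT5G44770 read 29.7 and 18.2 in the knockout and 13.2 and 10.7 in wild type. AT4G10910 read 14.8 and 18.8 in the knockout and 5.9 and 3.7 in wild type, so both its groups stayed below 20.

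AT4G30680 read 23.6 and 19.2 in the knockout and 6.4 and 12.7 in wild type. AT2G25640 read 18.8 and 15.7 in the knockout and 6.4 and 5.1 in wild type. AT1G69400 read 19.0 and 27.4 in the knockout and 13.3 and 10.3 in wild type. In each of these genes the groups were 11.4 to 11.85 apart. CR4, with a difference of 11.4, is described with the named genes. The remaining 38 genes had differences of 7.85 to 11.4. Their knockout signals ran from 10.7 to 29.3 on replicate 1 (median 18.15) and from 7.8 to 26.8 on replicate 2 (median 17.45), against 1.1 to 18.6 and 1.7 to 19.8 on the wild type arrays (medians 7.35 and 8.60).

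Only 6 of the 58 genes carry a descriptive name in the annotation used, and they have varied roles. CR4 (also known as ACR4), a receptor-like kinase of the plant epidermis and the root tip, read 18.3 and 15.3 in the knockout and 6.2 and 4.6 in wild type. SAP (STERILE APETALA), a gene needed for flower and ovule development, read 14.1 and 13.9 in the knockout and 3.7 and 8.2 in wild type. SAP is the 1 named member whose name refers to the flower, and both its groups lay below 20. UGT71B5, of the glycosyltransferase family that attaches sugars to small molecules, read 13.9 and 21.9 in the knockout and 7.3 and 8.3 in wild type.

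Of the other 3 named genes, a pair acts in membrane trafficking. AT1G18830, listed with the synonym SEC31A after a coat protein of vesicles that leave the endoplasmic reticulum, read 25.3 and 23.9 in the knockout and 18.6 and 13.1 in wild type. DL1B, a dynamin-like protein gene, read 22.6 and 20.5 in the knockout and 6.4 and 19.8 in wild type. Its lowest knockout value lay only 0.7 above its highest wild type value, which was the narrowest separation among the 58. CIL read 12.7 and 21.4 in the knockout and 9.8 and 8.1 in wild type. Descriptive names were also scarce among all near-silent probe sets, where 8.29% had one, against 10.3% of the 58 genes. For 52 of the 58 genes the annotation used here therefore does not say whether they belong to flower, seed, root or specialised metabolism.

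The genes near the end of the ranking were hardly separated from those left out. AT1G04560, at rank 58, read 19.8 and 15.0 in the knockout and 8.5 and 10.5 in wild type. AT3G62380 and AT2G21510, at ranks 59 and 60, both had a difference of 7.85. AT3G62380 read 17.2 and 8.4 in the knockout and 7.1 and 2.8 in wild type. AT2G21510 read 14.3 and 8.5 in the knockout and 3.0 and 4.1 in wild type. The next 3, AT5G44230, AT3G46480 and AT1G65090, each had a difference of 7.70. AT5G44230, the first outside, read 18.8 and 19.3 in the knockout and 16.2 and 6.5 in wild type.

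The difference of means was larger than the gap between replicates in both groups for 48 of the 58 genes. In the other 10 genes, DL1B and CIL among them, replicates of 1 group lay further apart than the groups or equally far. The rule asks for separated groups and ranks by the difference, which favours such a count, so nothing is read from it. The widest wild type gap was that of AT2G16870, at 3.7 and 17.9, beside 19.2 and 19.7 in the knockout. Knockout replicate 1 read higher than replicate 2 in 37 of the 58 genes, while it did so in 52.5% of all near-silent probe sets. The gap between knockout replicates had a median of 4.75 among the 58 genes and of 1.80 among the 4232 near-silent probe sets. In 270 of the near-silent probe sets (6.38%) the 2 knockout arrays differed from each other by more than 7.85, the smallest group difference among the 58. Across the same 4232 the median difference between groups was -0.20, and the 99th percentile was 8.78.

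**Figure D2:**
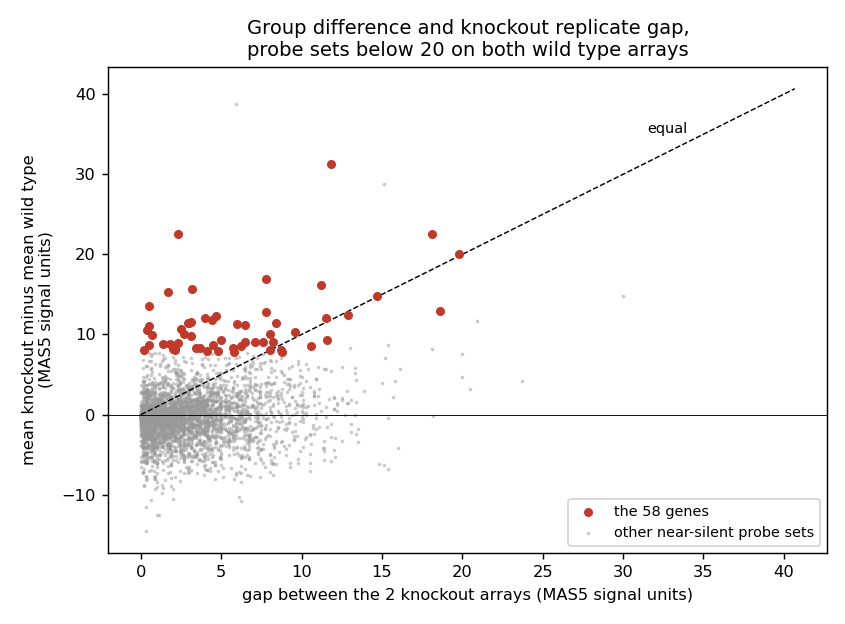
Mean knockout minus mean wild type signal (vertical axis) against the gap between the 2 knockout arrays (horizontal axis), both in MAS5 signal units, for the 4232 near-silent probe sets. The 58 genes (red) lie at 7.85 or higher by construction. Of these, 51 lie above the dashed line where difference and gap are equal, which the rule favours. JRG21 and PDF1.2, which were left out, are grey points. JRG21 lies above all 58 genes, and PDF1.2, at 28.75, lies below AT5G42330.

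The same rule was applied with the groups exchanged, to see how often and by how much genes near-silent in the knockout read higher in wild type. Of 4582 probe sets below 20 on both knockout arrays, 897 (19.6%) read higher on both wild type arrays, against 484 of 4232 (11.4%) in the direction of the 58 genes. The top 60 of the exchanged rule had a median difference of 11.55 and a smallest one of 9, against 10.1 and 7.85 for the top 60 that gained signal in the knockout. The highest was AT5G27280, which read 4.1 and 14.4 in the knockout and 175 and 222 in wild type. The next highest, AT1G19210, read 16.8 and 15.0 in the knockout and 29.7 and 42.7 in wild type. In all, 92 single-symbol probe sets differed by 7.85 or more in favour of wild type, where the rule for the 58 genes and the 2 left out gives 60 in favour of the knockout.

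That balance moved with 1 array. Without wild type replicate 2, the array with the higher dim signals, 1940 probe sets met the rule in favour of the knockout and 1437 met it in favour of wild type. Without wild type replicate 1 the numbers were 1031 and 2453. After quantile normalization, which gives all arrays the same distribution of signals, they were 677 and 762, and after scaling the arrays to equal medians 580 and 835. The membership moved as well. When the rule was applied without 1 array, 19 to 34 of the 58 genes were chosen again, with 19 without wild type replicate 1, 22 without wild type replicate 2, 31 without knockout replicate 1 and 34 without knockout replicate 2. After quantile normalization 52 of the 58 were chosen again.

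**Figure D3:**
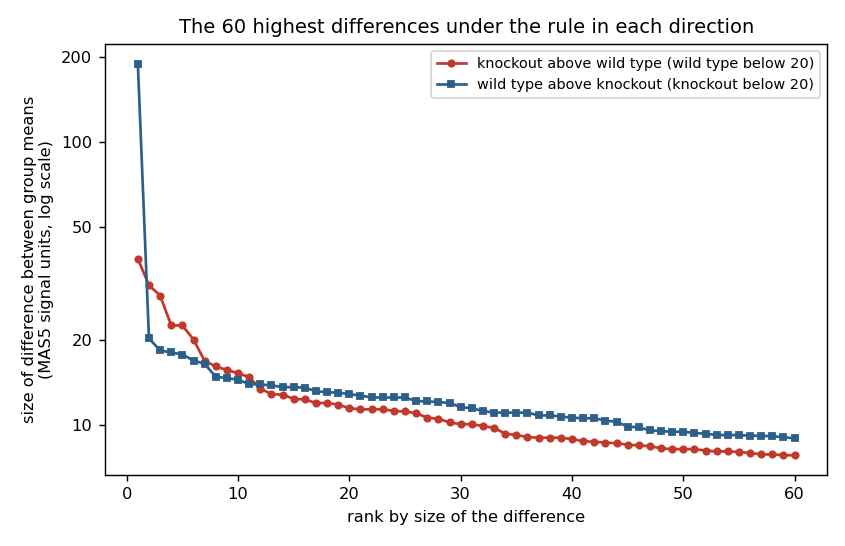
Size of the difference between group means (vertical axis, MAS5 signal units, log scale) by rank (horizontal axis) for the top 60 probe sets that read higher in the knockout (red, JRG21 and PDF1.2 included) and the top 60 that read higher in wild type (blue). From rank 2 to rank 11 the red points are the higher ones, and at ranks 1 and 12 to 60 the blue points are.

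The test across all genes could reach few of these genes. It was run with limma on log2(signal + 16) over the 15924 probe sets whose mean signal was at or above 19.5. Of the 58 genes, 47 were below this floor and 11 were tested. All 11 had a wild type mean of 9.9 to 19.05, below the floor, and so were tested only because they were brighter in the knockout. AT5G42330 was the 1 member called at an adjusted p of 0.05, against 27 of all 15924 tested probe sets (0.17%) that were called higher in the knockout. Since the rule and the floor both favour a high knockout signal, nothing is read from that count or from the fold changes, which are given as a description. The log2 fold change of AT5G42330 was 1.13 (SE 0.190) on the log2(signal + 16) scale. The other 10 tested genes had log2 fold changes of 0.35 to 0.79, with AT1G10980 (0.79) and AT3G19870 (0.73) at the top. That of AT1G10980 was 1.11 without knockout replicate 1 and 0.48 without knockout replicate 2. The call of AT5G42330 was lost without knockout replicate 1, without knockout replicate 2 and when no probe set was filtered out.

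Classes of genes were then followed through the near-silent probe sets, by words in their symbols and synonyms. In the flower and pollen class 39 probe sets were near-silent in wild type, and 4 of them (10.3%) read higher on both knockout arrays, beside 11.4% of all near-silent probe sets. The 4 were PTL, UFO, AGL92 and AGL96, and none was among the 58 genes, which are 12.0% of all probe sets that met the rule. SAP (STERILE APETALA), a gene of flower development, met the rule and is among the 58, but is not counted in the 39. The class word petal occurs in its name only inside APETALA, which was not matched. Had it been counted, the class would have held a gene of the 58. PTL (PETAL LOSS), a transcription factor of flower development, read 10.2 and 12.6 in the knockout and 10.1 and 4.9 in wild type. UFO (UNUSUAL FLORAL ORGANS), an F-box protein of floral organ identity, read 3.5 and 2.9 in the knockout and 2.4 and 2.7 in wild type. AGL92, of the MADS-box family of transcription factors, read 5.9 and 8.2 in the knockout and 3.1 and 3.9 in wild type. The differences of these 4 genes were 0.65 to 3.90, below the smallest among the 58. In the opposite direction 8 of 40 flower and pollen probe sets near-silent in the knockout (20.0%) read higher in wild type, beside 19.6% of all.

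In the seed class none of 5 near-silent probe sets read higher on both knockout arrays. OLEO3, an oleosin that coats the oil bodies of seeds, read 13.3 and 11.4 in the knockout and 17.6 and 19.6 in wild type. In the root class, whose words include expansin, none of 4 did so either. Only these 4 of its 31 single-symbol probe sets were near-silent in wild type, so nothing is read from this about root genes. In the class of specialised metabolism 6 of 30 (20.0%) did, beside the 11.4% of all near-silent probe sets. The 6 were UGT71B5, UGT73B4, UGT73C7, UGT84B2, CYP71B36 and CYP51G2, and only UGT71B5 was among the 58 genes. Their differences ran from 1.80 for UGT84B2 to 10.1 for UGT71B5. All but that of UGT71B5 were below 7.85, the smallest among the 58. UGT73B4, a glycosyltransferase, read 12.1 and 16.1 in the knockout and 3.8 and 10.1 in wild type. CYP71B36, a cytochrome P450, read 17.4 and 12.0 in the knockout and 11.7 and 9.3 in wild type. In the opposite direction 3 of 26 (11.5%) read higher in wild type, and UGT73C1 differed most, with 3.0 and 1.0 in the knockout and 13.9 and 8.6 in wild type. These shares rest on few genes and were not tested. The class words of specialised metabolism include enzyme families such as cytochrome P450 and glycosyltransferase. A match therefore does not place a gene in that metabolism.

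**Figure D4:**
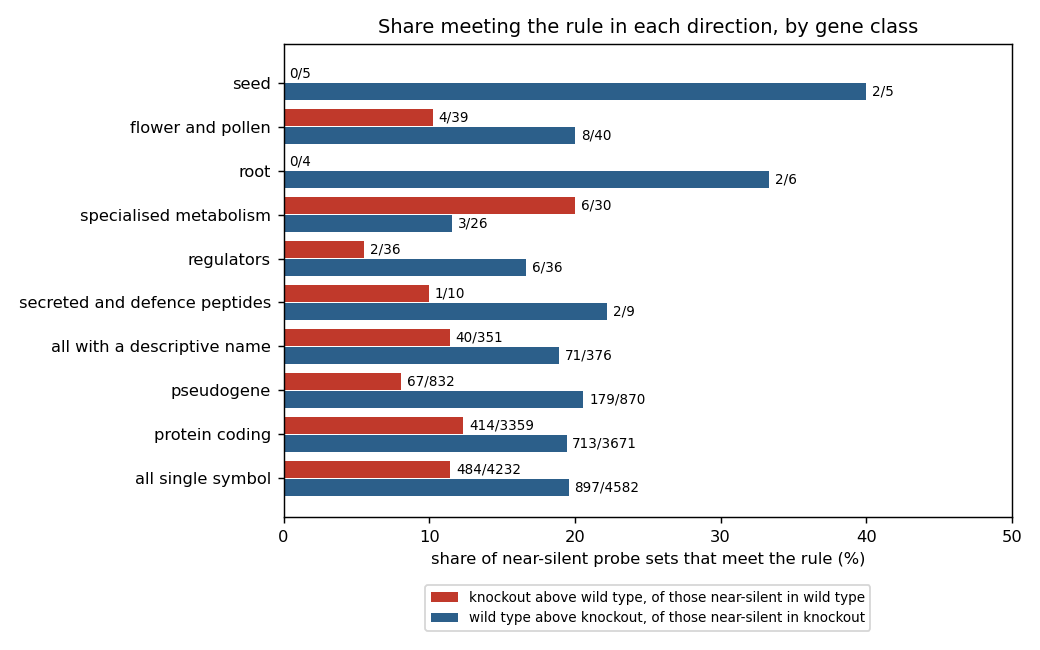
Share of near-silent probe sets (horizontal axis, percent) that read higher on both knockout arrays (red, of those below 20 in wild type) or on both wild type arrays (blue, of those below 20 in the knockout), by gene class, with the counts beside the bars. Specialised metabolism is the 1 class drawn in which the red share is above the blue share (6 of 30 against 3 of 26), and the seed and root classes hold few probe sets.

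The other word classes held none of the 58 genes. Nothing is read from this, since the 58 came from 4232 near-silent probe sets and only 6 carry a descriptive name. The words do not reach every name: CR4, a receptor-like kinase by its known role, carries none of them. Of the regulators 2 of 36 near-silent probe sets met the rule, and of the secreted and defence peptides 1 of 10, which was PDF1.2. None of the 4 probe sets that the words assign to transport did, and none of the 4 they assign to receptor-like and immune genes. Of all near-silent probe sets with a descriptive name, 40 of 351 (11.4%) met the rule. By symbol, 3 of 5 near-silent CHR genes, which encode chromatin remodelling proteins, read higher on both knockout arrays, a group singled out after its values were seen. CHR42 read 15.0 and 6.6 in the knockout and 4.8 and 3.4 in wild type. CHR24 read 20.9 and 25.4 in the knockout and 19.1 and 19.6 in wild type. CHR34 read 16.4 and 16.8 in the knockout and 13.2 and 13.8 in wild type. All 3 had smaller differences than the 58 genes.

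Genes on the lists of Polycomb targets, seed, pollen and specialised metabolism could be named only in part, and none was among the 58. Nothing is read from this, since few of them were near-silent in wild type and so open to the rule. These were 0 on the Polycomb target list, 3 on the seed list, 1 on the pollen list and 1 on the specialised metabolism list. Of all near-silent probe sets, 58 of 4232 were chosen. Of the 31 listed genes that Polycomb keeps silent in leaves or seedlings, 2 had a single-symbol probe set. AGL19, a flowering gene that Polycomb is known to repress in Arabidopsis seedlings, read 17.5 and 14.5 in the knockout and 20.0 and 21.6 in wild type. AGL24, a promoter of flowering, read 24.6 and 28.2 in the knockout and 17.8 and 21.6 in wild type (limma adjusted p = 0.998), so 1 of the pair read lower and 1 higher on both knockout arrays. The pollen list had 1 of 27 genes, AMS, a regulator of the anther tapetum, at 3.0 and 0.5 in the knockout and 1.3 and 3.7 in wild type. The seed list had 3 of 26, OLEO3 (above) and the late embryogenesis genes M10 and M17, which read below 1 on every array. The specialised metabolism list had 4 of 45. BAN, of the seed coat tannin pathway, read 1.8 and 2.4 in the knockout and 1.8 and 2.0 in wild type. The other 3 were bright in both groups and not called. The anthocyanin genes DFR and UF3GT read lower on both knockout arrays, DFR at 420 and 416 in the knockout and 484 and 512 in wild type, and UF3GT at 266 and 289 in the knockout and 350 and 348 in wild type. The groups of BCAT4, a glucosinolate gene, overlapped. The list of Polycomb subunits had 1 of 22, ULT1, a trithorax-type factor, which was not called.

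The annotated type and position of the 58 genes were set beside those of the near-silent probe sets from which they came. The RefSeq annotation of assembly TAIR10.1 lists 51 as protein-coding and 7 as pseudogenes (12.1%). Pseudogenes made up 18.5% of all near-silent probe sets and 6.83% of all single-symbol probe sets. The 7 pseudogenes read 10.7 to 28.9 and 8.1 to 17.6 on the knockout arrays, and 1.1 to 10.3 and 1.7 to 14.0 on the wild type arrays. Counting transcribed pseudogenes too, 67 of 832 near-silent pseudogenes (8.05%) met the rule, beside 414 of 3359 protein-coding genes (12.3%). Of the 58 genes 18 (31.0%) lie on chromosome 3, where 20.9% of the near-silent probe sets lie, 16 on chromosome 1, and 8 on each of chromosomes 2, 4 and 5. Of the 58 probe sets 3 (5.17%) are of a kind that can bind several related transcripts, for AT1G30150, AT2G06130 and AT3G09170, beside 4.58% of the near-silent ones.

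The genes next to the 58 on the chromosome were read as well, a measure that the rule did not use. No 2 of the 58 were direct neighbours. Among the 116 protein-coding genes and pseudogenes directly beside them, 60 had a single-symbol probe set. Of these 60, 8 (13.3%) read higher on both knockout arrays, beside 12.6% of all single-symbol probe sets, and 7 (11.7%) read lower on both, beside 17.5%. None of the 33 neighbours bright enough to test was called by limma (0 also at an unadjusted p of 0.05), where 0.32% of all tested probe sets were called. Their median log2 fold change was 0.00, with 16 of 33 above 0 and a range of -0.29 to 0.39. The highest was AT4G15270, next to UGT71B5, which read 47.9 and 31.9 in the knockout and 24.3 and 28.1 in wild type (log2 fold change 0.39, SE 0.186, limma adjusted p = 0.975). PUB15, a ubiquitin ligase gene next to AT5G42330, read 11.6 and 7.6 in the knockout and 2.1 and 14.9 in wild type, so its groups overlapped.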

How the data were processed

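The deposited table holds 1 linear intensity per probe set and array, and the authors made these signals with MAS5, per the submitters' processing notes. As to its version, settings and scaling, these were not given in the sources used here. All 64 control probe sets were set aside. Gene names came from the platform's annotation table, which can be old: 13513 probe sets had 1 symbol, 503 had several and 8730 were not listed. Through gene numbers 13436 matched RefSeq (TAIR10.1), which gave symbols, synonyms, chromosomes and gene order. No coordinates are printed, since no source used here names the genome build behind the array.

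Knockout and wild type were compared by limma 3.58.1 under R 4.3.3 (log2(signal + 16), mean signal at or above the 30th percentile, eBayes with trend, two-sided, Benjamini-Hochberg), and the procedure was tested on simulated data. An exact permutation test of 2 against 2 cannot go below p = 0.333. The 58 genes, the classes and the lists were chosen with earlier results of these data known. The text names the 20 genes with the highest difference, class members, list members, those at the end of the ranking and, singled out after their values were seen, single neighbours. Classes are matches of set words in symbols and synonyms ("B3" was read as "B3 domain"), as no gene descriptions were used. Alternatives were other pseudocounts, filters, normalizations, ceilings and rankings, a replicate block and leaving out each array. Both groups carry replicate numbers 1 and 2, which no label ties to a common batch or day. Planned promoter motifs and protein features are not analysed here.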

Additional observations from a re-analysis of the deposited data

Results flagged for a closer look

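Probe sets without a single gene symbol were outside the selection. Of 9233 such probe sets, 1781 were near-silent in wild type and 237 of these (13.3%) read higher on both knockout arrays. In 32 of them the difference was larger than the smallest among the 58 genes, and in 1 it was larger than the largest. That probe set, which is not listed in the annotation used, read 65.8 and 90.4 in the knockout and 7.4 and 5.1 in wild type, a difference of 71.85. It was found on the same 4 arrays by the same signals, so its size is a description, and only the lack of a single gene symbol kept it out of the selection. Of the 32, 12 were bright enough for limma and 20 were not. Nothing is read from calls among them, since they were chosen by the contrast that limma tests.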

How the results depend on the processing

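The 11 tested genes were chosen by the contrast that limma tests, so their values and calls are descriptions that the choice itself raises. Their median log2 fold change, 0.40, was 0.70 with a pseudocount of 1 and 0.18 with a pseudocount of 64, and with 1 array left out it ranged from 0.38 to 0.48. The count of called probe sets, 51, was 0 with no filter (1081 at an unadjusted p of 0.05 in limma), 89 with the replicate block and 195 with a crossed pairing of the replicates, an alternative added after seeing the data, and with 1 array left out it ranged from 20 to 87. Across tested probe sets, replicate 2 minus replicate 1 in the knockout and in wild type correlated at -0.301. No label says whether samples were paired. Among the 58 genes the call count of 1 was 0 with no filter (44 at an unadjusted p of 0.05, a number raised by the choice of genes), 1 with the replicate block and 2 with the crossed pairing, and it ranged from 0 to 1 with 1 array left out. With a filter at the 50th percentile none of the 58 was tested, so that setting gives no value for them. With no filter 22746 probe sets were tested in place of 15924.

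With a wild type ceiling of 10, 312 probe sets met the rule and 568 met it with the groups exchanged. A ceiling of 10 or of 30 each kept 29 of the 58 genes, which follows from the construction, as the ceiling bars or adds brighter genes. Ranking by log2 ratio kept 42. With 1 array left out the rule was met by 1025 to 1940 probe sets, the exchanged rule by 1437 to 2453, and 19 to 34 of the 58 genes were chosen again, since fewer arrays have to agree. Among the top 120 the class of specialised metabolism had 2 genes in place of 1. For every other count named here the value under quantile normalization, median scaling, or without probe sets that bind several transcripts was within 1.5 times the main one. None of the log2 fold changes of the 11 tested genes changed sign under these settings. Apart from the normalizations, the rule fixed this outcome, since both knockout signals had to exceed both wild type signals. The number of arrays, 2 per group, and signals near 20 limit what can be told of these genes.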
